A study of Homo sapiens with 12 samples.

Results

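The genes described here are ATF4 and 9 genes of the integrated stress response that it is known to activate, 10 in all, taken by symbol from a table of 63677 genes: ATF4, DDIT3, ATF5, TRIB3, SESN2, DDIT4, CHAC1, ASNS, PSAT1 and PHGDH. They were chosen by name, with earlier results of these data known. Counts among them set beside shares of all genes are therefore descriptive and no independent support. All 10 reached 10 counts in 3 or more samples, the filter that left 17092 genes for testing. RNA came from Huh7 cells, an established line from a human liver carcinoma, in 12 samples that fall into 4 groups of 3. Untreated cells received medium only, and the treated cells were exposed for 6 h to graphene oxide flakes (GO, 400 µg/mL), to GO conjugated with the ginseng saponin Rg3 (GO-Rg3, 400 µg/mL), or to GO-Rg3 loaded with the anthracycline doxorubicin (GO-Rg3-DOX, 100 µg/mL). The labels give no genetic change in any group. They do not say that replicates were separate cultures, so p-values measure the spread between these samples, which may be technical. GO and GO-Rg3 were given at the same dose and are compared with each other. The study reports that conjugation, done in hot acid, also changed the size, thickness and surface charge of the flakes. The presence of Rg3 therefore cannot be told apart from these changes. Loading the drug, as the study reports, also changed the size and thickness of the GO-Rg3 flakes. GO-Rg3-DOX differs from both in dose as well as in its drug, so its values are set beside theirs without a test. Cells given free DOX were not analysed here.

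In the integrated stress response, kinases that sense amino acid shortage, unfolded proteins in the endoplasmic reticulum, haem shortage or double-stranded RNA phosphorylate the initiation factor eIF2 on its alpha subunit. Translation falls in general, while the mRNA of ATF4 is translated better because of short reading frames in its leader. ATF4 protein then activates genes for amino acid uptake and synthesis, tRNA charging, further transcription factors and feedback inhibitors. RNA counts show none of the phosphorylation or translation steps, and ATF4 activity was not measured.

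Counts per sample totalled 27802871 to 38877420, and levels are given as CPM, counts scaled to a common library size after TMM scaling, in the order of replicates 1, 2 and 3. Sums over marker lists are the exception and use library totals without TMM scaling. All 9 hepatocyte markers examined were expressed. Their sums were 26090 to 26444 CPM in untreated cells and 13434 to 19590 with GO. The sums were 20464 to 24830 with GO-Rg3 and 23267 to 31700 with GO-Rg3-DOX. In TMM-scaled CPM, all of them but HNF4A had a higher mean with GO-Rg3-DOX than in untreated cells. ALB went from 4139 to 6144 and HNF4A from 363 to 180. Of 10 markers of blood, endothelial, connective tissue, epidermal and glial cells, 2 passed the filter, and the summed level of the list was 1.29 to 1.35 CPM in untreated cells, 0.801 to 1.70 with GO, 1.40 to 1.82 with GO-Rg3 and 2.55 to 3.47 with GO-Rg3-DOX. Between 1 and 4 of these markers were at 0 in all samples of a group. The mitochondrial genome's own genes supplied 5.81% ± 0.489 of all counts (SD, n = 3) in the untreated group, 17.0% ± 6.28 with GO, 7.24% ± 0.301 with GO-Rg3 and 15.4% ± 3.52 with GO-Rg3-DOX. GO replicate 1 stood apart with 24.1%, against 12.1% and 14.8% in the other GO samples. It also had the highest level of its group for 8 of the 10 genes, and each GO result below was refitted without it. The study lists its first GO sample with the lowest RNA integrity number, a score of RNA quality, of all samples. Its second control has the next lowest. That list gives no replicate numbers. The part of RNA quality in the results was not tested beyond the fits with 1 sample left out. The part of the mitochondrial share and of the marker levels in the results was not tested, apart from fits without GO replicate 1 and without the mitochondrially encoded genes. Among the 10 genes the latter ended 1 call, that of ASNS after GO-Rg3-DOX (log2 fold change 0.35, adjusted p = 0.01).

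**Figure D1:**
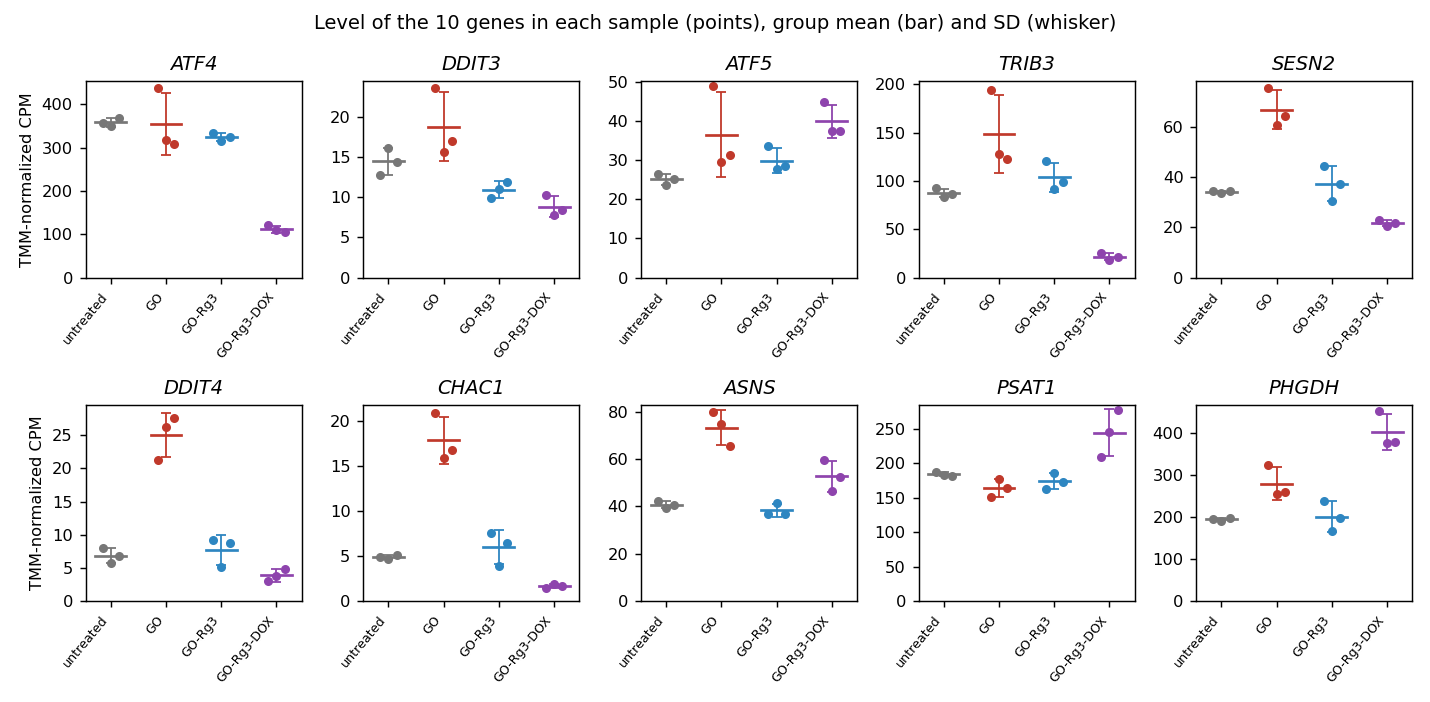
Each panel plots 1 gene in TMM-normalized CPM on a linear axis from 0, with a point per sample, a bar at the group mean and whiskers of 1 SD (n = 3). The GO samples of DDIT4 and CHAC1 lie above all others, and the GO-Rg3-DOX samples of ATF4 and TRIB3 lie below all others.

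After GO treatment, 6 of the 10 genes rose at an adjusted p below 0.01 and 0 fell, where 12.1% of all genes tested rose and 15.4% fell. The genes that rose were DDIT4, CHAC1, SESN2, ASNS, TRIB3 and PHGDH, by 1.44-fold to 3.66-fold. DDIT4 and CHAC1 also passed a log2 fold change of 1, which 3.84% of all genes did on the rising side. The mRNA of ATF4 itself did not pass the test, nor did DDIT3, ATF5 and PSAT1. The median log2 fold change of the 10 genes was 0.65, beside 0.01 over all genes. Without GO replicate 1, 5 genes rose, and without untreated replicate 2, 4 rose.

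GO-Rg3 gave no call among the 10 genes against untreated cells, where 0.0585% of all genes rose and 0.105% fell. By edgeR's quasi-likelihood test 1 gene, DDIT3, was at an unadjusted p below 0.05, and DESeq2 also called 0. The median log2 fold change of the 10 genes was 0.09. Set directly against GO at the same dose, GO-Rg3 gave lower levels of 5 genes (DDIT4, CHAC1, ASNS, SESN2 and DDIT3) and higher levels of 0, where 6.25% of all genes were lower and 7.33% higher. DDIT4 and CHAC1 were lower by more than 1 on the log2 scale, as were 2.07% of all genes. The model shares 1 estimate of the spread over all 4 groups. In a fit of only the 6 samples compared, 3 of the genes were called lower. SESN2 (adjusted p = 0.01) and DDIT3 (adjusted p = 0.019) lost their calls. Over all genes that fit called 319 lower and 163 higher, where the main fit called 1068 and 1253. This comparison uses the same GO samples as that of GO with untreated cells, so the 2 are not independent.

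After GO-Rg3-DOX all 10 genes changed, in different directions. ATF4, DDIT3, TRIB3, SESN2, DDIT4 and CHAC1 fell, 6 genes where 30.5% of all genes fell, while ASNS, PSAT1, PHGDH and ATF5 rose, 4 genes where 25.5% of all genes rose. ATF4, TRIB3 and CHAC1 fell by more than 1 on the log2 scale (18.2% of all genes) and PHGDH rose by more than 1 (12.6% of all genes). The median log2 fold change was -0.69, beside -0.06 over all genes. The rises were the less stable side: 1 gene rose without untreated replicate 2, and 2 rose without untreated replicate 1 or 3 or GO-Rg3-DOX replicate 1 or 3, while 5 or 6 genes fell in each fit with 1 sample left out. The 3 comparisons with untreated cells share the same untreated samples. In bulk RNA, fewer cells expressing a gene and less RNA per cell cannot be told apart.

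**Figure D2:**
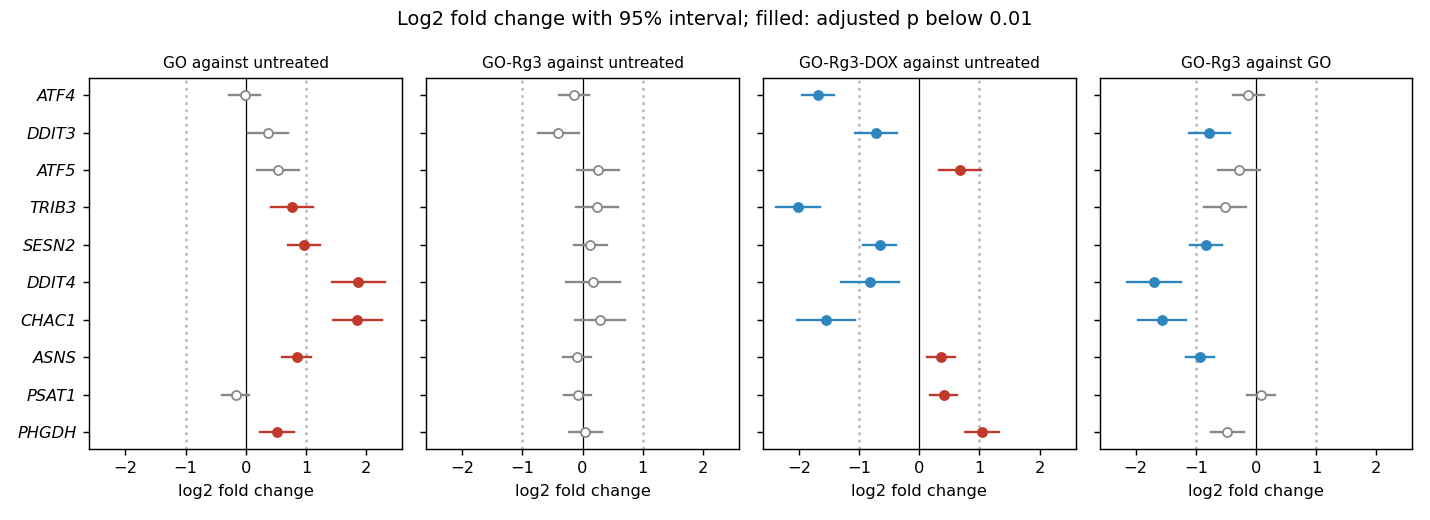
Log2 fold changes of the 10 genes in 4 comparisons, with 95% intervals; filled points passed an adjusted p below 0.01, red for higher and blue for lower, and dotted lines stand at 1 and -1. The first panel holds 6 red points, from TRIB3 to ASNS and at PHGDH, the second holds open points only, the third splits into 6 blue and 4 red points, and the fourth holds 5 blue points.

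Among the transcription factors, ATF4 (ENSG00000128272, chromosome 22 from 39915700 to 39918688, plus strand, GRCh37) was the most abundant of the 10 genes per length, at 253 CPM per kb of transcript in untreated cells. Its levels were 357, 350.1 and 369.7 CPM in untreated cells, 438, 318 and 308 with GO, 334, 316 and 325 with GO-Rg3 and 121, 109.2 and 105 with GO-Rg3-DOX. The GO samples spread on both sides of the untreated ones, the GO-Rg3 samples lay just below them, and the GO-Rg3-DOX samples lay far below every other sample. ATF4 differed from untreated cells by -0.02 on the log2 scale after GO (95% interval -0.27 to 0.23, adjusted p = 0.91) and by -0.14 after GO-Rg3 (-0.40 to 0.11, adjusted p = 0.67). After GO-Rg3-DOX it fell 3.22-fold, a log2 fold change of -1.68 (standard error, SE, 0.12, adjusted p = 1.5e-08). Without GO replicate 1 the value after GO was -0.20 (adjusted p = 0.07).

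DDIT3 (ENSG00000175197, chromosome 12 from 57910371 to 57915520, minus strand) encodes CHOP, a partner of C/EBP proteins that acts in stress-induced death. Its levels were 12.8, 16.2 and 14.4 CPM in untreated cells, 23.7, 15.7 and 17.0 with GO, 9.84, 10.99 and 11.9 with GO-Rg3 and 10.3, 7.80 and 8.39 with GO-Rg3-DOX. The GO and untreated samples overlapped, while every GO-Rg3 and GO-Rg3-DOX sample lay below every untreated one. The log2 fold change was 0.37 after GO (SE 0.16, adjusted p = 0.067), -0.40 after GO-Rg3 (SE 0.16, adjusted p = 0.26) and -0.71 after GO-Rg3-DOX (SE 0.16, adjusted p = 0.0013). Without GO replicate 1 the value after GO was 0.18 (adjusted p = 0.31), and without GO replicate 2 it was 0.49 (adjusted p = 0.028). GO-Rg3 samples were 1.72-fold below GO samples (log2 fold change -0.78, SE 0.16, adjusted p = 0.0028), and at -0.58 on the log2 scale without GO replicate 1 (adjusted p = 0.0075). DDIT3 overlaps MARS1 and MBD6 on the other strand and an unnamed gene on its own strand. Whether the counting used the strand is not given in the sources used here, so its values are uncertain.

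ATF5 (ENSG00000169136, chromosome 19 from 50431959 to 50437192, plus strand) is a relative of ATF4 that takes part in the response to mitochondrial stress. Its levels were 26.6, 23.6 and 25.2 CPM in untreated cells, 49.0, 29.5 and 31.3 with GO, 33.6, 27.7 and 28.5 with GO-Rg3 and 44.9, 37.5 and 37.6 with GO-Rg3-DOX. Every treated sample lay above every untreated one. Against untreated cells only GO-Rg3-DOX passed the test, with a log2 fold change of 0.67 (SE 0.16, adjusted p = 0.002), and that call was lost without untreated replicate 2 (adjusted p = 0.011) or without GO-Rg3-DOX replicate 1 (adjusted p = 0.013). After GO the log2 fold change was 0.54 (SE 0.16, adjusted p = 0.015), and it was 0.28 (adjusted p = 0.066) without GO replicate 1. After GO-Rg3 it was 0.25 (95% interval -0.09 to 0.60, adjusted p = 0.56). ATF5 overlaps IL4I1 and NUP62 on the other strand and MIR4751 on its own, and is uncertain for the same reason as DDIT3.

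TRIB3 (ENSG00000101255, chromosome 20 from 343479 to 378203, plus strand), SESN2 and DDIT4 act downstream as brakes: TRIB3 is a pseudokinase that binds ATF4 and AKT, and SESN2 and DDIT4 each inhibit the growth kinase mTORC1. TRIB3 stood at 92.3, 83.8 and 86.3 CPM in untreated cells, 195, 128 and 122 with GO, 121, 91.2 and 99.3 with GO-Rg3 and 25.1, 18.6 and 21.4 with GO-Rg3-DOX. All GO samples were above the untreated ones, with replicate 1 far ahead of the others, and all GO-Rg3-DOX samples were below every other sample. TRIB3 rose 1.69-fold after GO (log2 fold change 0.76, SE 0.16, adjusted p = 0.0019), or 0.52 on the log2 scale without GO replicate 1 (adjusted p = 0.0046). That call was lost without untreated replicate 2 (0.73, adjusted p = 0.011). After GO-Rg3-DOX it fell 4.03-fold, the largest change of the 10 genes in any comparison (-2.01, SE 0.17, adjusted p = 8.9e-08). GO-Rg3 samples were at -0.52 against GO samples (SE 0.16, adjusted p = 0.03), or -0.27 without GO replicate 1 (adjusted p = 0.14), and at 0.25 against untreated ones (adjusted p = 0.57).

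SESN2 (ENSG00000130766, chromosome 1 from 28586029 to 28609002, plus strand), a leucine sensor, stood at 34.4, 33.7 and 34.6 CPM in untreated cells, 75.6, 61.0 and 64.3 with GO, 44.4, 30.7 and 37.3 with GO-Rg3 and 22.8, 20.4 and 21.8 with GO-Rg3-DOX. The GO samples were the highest and the GO-Rg3-DOX samples the lowest, and the GO-Rg3 samples straddled the untreated ones. SESN2 rose 1.96-fold after GO (log2 fold change 0.97, SE 0.13, adjusted p = 4.4e-05) and fell 1.58-fold after GO-Rg3-DOX (-0.66, SE 0.13, adjusted p = 0.00031). GO-Rg3 was 1.79-fold below GO (-0.84, adjusted p = 0.00033) and at 0.13 against untreated cells (95% interval -0.13 to 0.40, adjusted p = 0.72).

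DDIT4 (ENSG00000168209, chromosome 10 from 74033678 to 74035794, plus strand), also known as REDD1, stood at 7.96, 5.69 and 6.85 CPM in untreated cells, 21.3, 26.3 and 27.6 with GO, 9.30, 5.11 and 8.72 with GO-Rg3 and 3.01, 3.74 and 4.92 with GO-Rg3-DOX. The GO samples did not overlap any other group, and here replicate 1 was the lowest of them. DDIT4 rose 3.66-fold after GO (log2 fold change 1.87, SE 0.21, adjusted p = 1.4e-05), and by 1.97 on the log2 scale without replicate 1. GO-Rg3 was 3.24-fold below GO (-1.70, SE 0.21, adjusted p = 6.7e-05). Its difference from untreated cells was 0.18 after GO-Rg3 (95% interval -0.27 to 0.63, adjusted p = 0.78). DDIT4 fell 1.76-fold after GO-Rg3-DOX (-0.81, SE 0.23, adjusted p = 0.0052). The last call was lost without untreated replicate 1 (adjusted p = 0.026), untreated replicate 3 (0.014), GO-Rg3-DOX replicate 1 (0.033) or GO-Rg3-DOX replicate 2 (0.022).

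CHAC1 (ENSG00000128965, chromosome 15 from 41245160 to 41248710, plus strand) breaks down glutathione and had the lowest level per length of the 10 genes in untreated cells, at 3.24 CPM per kb. It stood at 4.87, 4.73 and 5.16 CPM in untreated cells, 20.8, 15.9 and 16.8 with GO, 7.57, 3.92 and 6.46 with GO-Rg3 and 1.44, 1.94 and 1.64 with GO-Rg3-DOX. The lowest count of CHAC1 in any sample was 35. GO samples were above and GO-Rg3-DOX samples below every other sample, and GO-Rg3 samples lay on both sides of the untreated ones. CHAC1 rose 3.62-fold after GO (log2 fold change 1.86, SE 0.19, adjusted p = 6.7e-06) and fell 2.93-fold after GO-Rg3-DOX (-1.55, SE 0.23, adjusted p = 2.3e-05). GO-Rg3 was 2.96-fold below GO (-1.57, SE 0.19, adjusted p = 5.6e-05) and at 0.29 against untreated cells (95% interval -0.13 to 0.70, adjusted p = 0.58).

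Promoters of ASNS and CHAC1 are shown because these were the only members with a match to the letters TGATGNAAN, a form of the composite element that ATF4 and C/EBP proteins bind, in the 250 bases before a RefSeq start site (GRCh38.p14, both strands searched). The ASNS window is chr7:97872409-97872658 on the minus strand and the CHAC1 window is chr15:40953221-40953470 on the plus strand. Both are written 5′ to 3′ in the direction of transcription with the match in capitals.
ASNS: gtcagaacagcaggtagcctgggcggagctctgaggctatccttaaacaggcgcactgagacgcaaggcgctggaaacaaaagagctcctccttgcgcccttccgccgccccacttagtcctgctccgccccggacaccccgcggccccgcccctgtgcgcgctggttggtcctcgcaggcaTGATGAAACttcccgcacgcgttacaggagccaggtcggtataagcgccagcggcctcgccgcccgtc
CHAC1: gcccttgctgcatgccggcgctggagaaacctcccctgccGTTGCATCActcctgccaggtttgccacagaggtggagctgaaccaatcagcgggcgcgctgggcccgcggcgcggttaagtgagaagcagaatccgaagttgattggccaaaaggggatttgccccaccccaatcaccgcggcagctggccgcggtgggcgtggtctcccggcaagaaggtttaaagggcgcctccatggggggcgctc
The match in ASNS, TGATGAAAC, begins 68 bases before the start site, and the match in CHAC1, TGATGCAAC on the opposite strand, begins 210 bases before it. All 10 genes had an entry, with 17 start sites and as many windows among them. Of these 17 windows, 2 held a match. Of all 35116 windows of the same length, 1100 (3.13%) held one. A match describes the letters alone and no binding was measured, and the absence of one in the other 8 genes says only that these letters are not in these windows. ASNS and CHAC1 both rose after GO, and after GO-Rg3-DOX ASNS rose while CHAC1 fell.

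The 3 amino acid synthesis enzymes all rose after GO-Rg3-DOX, as ATF5 did. ASNS (ENSG00000070669, chromosome 7 from 97480989 to 97501854, minus strand, GRCh37), asparagine synthetase, stood at 42.5, 39.4 and 40.6 CPM in untreated cells, 79.9, 74.6 and 65.4 with GO, 36.8, 41.3 and 36.8 with GO-Rg3 and 59.4, 46.3 and 52.3 with GO-Rg3-DOX. GO samples were the highest, GO-Rg3-DOX samples lay between them and the untreated ones, and GO-Rg3 and untreated samples overlapped. ASNS rose 1.80-fold after GO (log2 fold change 0.84, SE 0.11, adjusted p = 4.5e-05), and GO-Rg3 was 1.91-fold below GO (-0.94, SE 0.11, adjusted p = 4.8e-05). Against untreated cells GO-Rg3 was at -0.09 (95% interval -0.33 to 0.14, adjusted p = 0.78). After GO-Rg3-DOX the rise was 1.29-fold (0.37, SE 0.11, adjusted p = 0.0081). That call held without GO-Rg3-DOX replicate 2 (adjusted p = 0.004) and was lost when any other of the 6 samples was left out, with adjusted p from 0.017 to 0.044. ASNS shares its strand with an unnamed gene. Its pseudogene ASNSP1 had 75 to 97 counts per sample in untreated cells and up to 152 after GO, against 1233 to 1723 and 2041 to 2790 for ASNS, so reads that match both could be split between them.

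PSAT1 (ENSG00000135069, chromosome 9 from 80912041 to 80945009, plus strand) and PHGDH (ENSG00000092621, chromosome 1 from 120191034 to 120286841, plus strand) catalyse steps of serine synthesis from a glycolytic intermediate. PSAT1 stood at 187, 183 and 182 CPM in untreated cells, 152, 177 and 163 with GO, 163, 185 and 173 with GO-Rg3 and 209, 246 and 277 with GO-Rg3-DOX. It was the one gene of the 10 that was lower in every GO sample than in every untreated sample, with a log2 fold change of -0.17 that did not pass the test (95% interval -0.39 to 0.06, adjusted p = 0.22). After GO-Rg3-DOX it rose 1.33-fold (0.41, SE 0.11, adjusted p = 0.0033). That call held without GO-Rg3-DOX replicate 1 (adjusted p = 0.00053) and was lost without any other of the 6 samples, with adjusted p from 0.011 to 0.025. GO-Rg3 was at 0.08 against GO (95% interval -0.14 to 0.31, adjusted p = 0.6) and at -0.08 against untreated cells (adjusted p = 0.79).

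PHGDH stood at 196, 191 and 198 CPM in untreated cells, 325, 255 and 259.9 with GO, 239, 166 and 199 with GO-Rg3 and 453, 376 and 379.7 with GO-Rg3-DOX. Every GO-Rg3-DOX sample was above every GO sample, and every GO sample above every untreated one. It rose 2.07-fold after GO-Rg3-DOX (log2 fold change 1.05, SE 0.13, adjusted p = 5.2e-06) and 1.44-fold after GO (0.52, SE 0.13, adjusted p = 0.0053). The second call was lost without GO replicate 1 (0.40, adjusted p = 0.02) and without untreated replicate 1 (adjusted p = 0.02), 2 (0.023) or 3 (0.019). GO-Rg3 was at -0.48 against GO (SE 0.13, adjusted p = 0.016) and at 0.05 against untreated cells (adjusted p = 0.92). Per length, PHGDH and PSAT1 followed ATF4 as the most abundant of the 10 genes in untreated cells, with 104 and 83.4 CPM per kb.

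Log2 fold changes over all genes went with the GC content of their transcripts. Across 16622 genes with a value (97.3% of those tested), which are not independent replicates, Spearman's rho was 0.43 after GO, 0.19 after GO-Rg3, 0.35 after GO-Rg3-DOX and -0.42 for GO-Rg3 against GO. The median GC content was 49.3%, and TRIB3 (61.8%), CHAC1 (62.8%), DDIT4 (63.0%), ATF5 (62.2%) and SESN2 (59.6%) lay well above it, while ASNS (45.3%) and PSAT1 (44.2%) lay below. With an offset for GC content in the model, the rise after GO was 1.502 on the log2 scale for DDIT4, 1.47 for CHAC1, 0.998 for ASNS and 0.67 for SESN2, all still called. TRIB3 at 0.39 (adjusted p = 0.017) and PHGDH at 0.34 (adjusted p = 0.011) were no longer called. After GO-Rg3-DOX, ATF5 went to 0.20 (adjusted p = 0.19), while ASNS went to 0.69, PSAT1 to 0.77, SESN2 to -1.01 and DDIT4 to -1.32. All 5 calls for GO-Rg3 against GO remained, at -0.58 to -1.42. The part of GC content in the results was not tested beyond this offset.

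**Figure D3:**
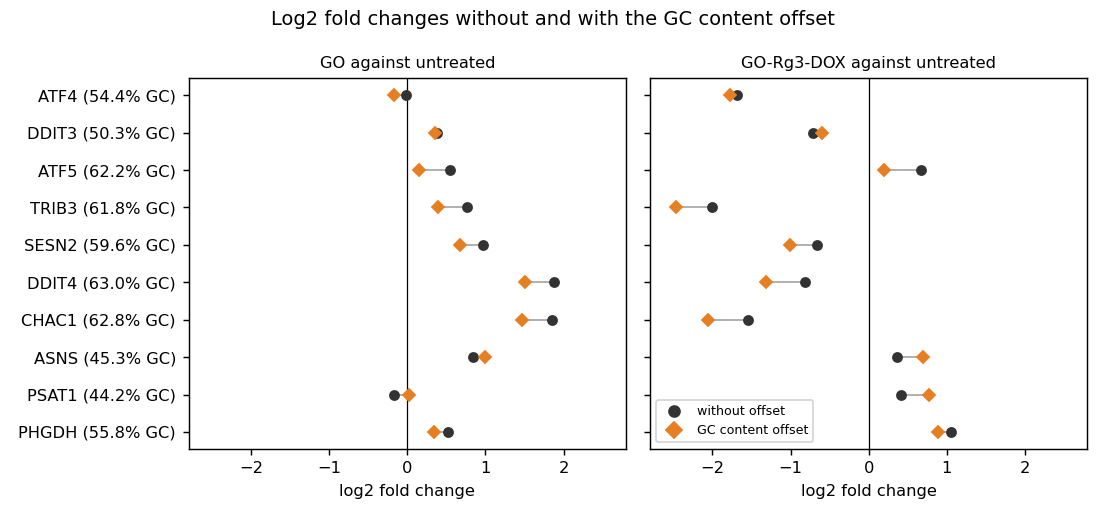
Log2 fold changes of the 10 genes after GO and after GO-Rg3-DOX, against untreated cells, without an offset (black circles) and with an offset for GC content (orange diamonds), with each gene's GC content in its label. The offset moved ATF5, TRIB3, SESN2, DDIT4 and CHAC1 to the left in both panels and the GC-poor ASNS and PSAT1 to the right.

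The choice of scaling moved the GO-Rg3-DOX values the most. With library totals in place of TMM, the median over all genes moved from -0.06 to -0.47. PSAT1 then stood at 0.0012 (adjusted p = 1), ASNS turned to -0.06 (adjusted p = 0.66) and ATF5 fell short at 0.25 (adjusted p = 0.11), all above that median, while PHGDH still rose by 0.62 (adjusted p = 0.00015). The genes called higher made up 45.5% of all calls with TMM and 22.8% with library totals. For GO the median moved from 0.01 to -0.11 and the share from 44.01% to 30.6%, with PHGDH alone among the members losing its call (0.39, adjusted p = 0.013), and for GO-Rg3 against GO the median moved from -0.02 to 0.12 and the share from 54.0% to 71.2%.

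The other genes of the pathway were counted from a list of 67, also written with earlier results of these data known, of which 64 were tested. NUPR1, SLC7A3 and FGF21 had at most 11, 1 and 9 counts in any sample. After GO, 17 rose (26.6%, beside 12.1% of all genes) and 11 fell (17.2%, near the 15.4% of all genes), with a median log2 fold change of 0.12. Some overlap other genes, as EIF2AK1 does AIMP2 on the other strand, and are uncertain for the reason given for DDIT3. The amino acid transporters, with 5 of 9 higher and 1 lower, and the secreted and other targets, with 6 of 11 higher and 0 lower, held most of the rises. The cystine carrier SLC7A11 went from 19.7 ± 1.06 to 46.2 ± 6.66 CPM (mean ± SD, n = 3, here and for the genes that follow; log2 fold change 1.23, adjusted p = 5.1e-06) and the neutral amino acid carrier SLC1A4 from 38.7 ± 1.13 to 89.3 ± 18.4 CPM (1.21, adjusted p = 7e-05), while SLC38A2 fell (-0.64, adjusted p = 0.0024). The secreted peptides ADM2 and STC2 rose the most, ADM2 from 12.8 ± 1.62 to 56.0 ± 12.7 CPM (2.13, adjusted p = 1.4e-05) and STC2 from 11.3 ± 1.0012 to 49.4 ± 5.54 CPM (2.12, adjusted p = 3.6e-08).

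Among the kinases that act upstream of ATF4 and the eIF2 genes, the calls after GO were all on the falling side. Of the 4 eIF2 alpha kinases, EIF2AK1, the haem-regulated kinase, fell after GO (-0.34, adjusted p = 0.0045), while EIF2AK2 (0.27), EIF2AK3 (-0.06) and EIF2AK4 (-0.05) did not pass the test. Of 10 genes for eIF2, its exchange factor eIF2B and its phosphatase subunits, 5 fell and 0 rose, where 15.4% of all genes fell and 12.1% rose. Among those that fell were the eIF2B subunits EIF2B3 (-0.74, adjusted p = 6.2e-05) and EIF2B2 (-0.66, adjusted p = 0.00014). PPP1R15A, which guides the phosphatase to eIF2 alpha, was at 0.18 (adjusted p = 0.14). Among 6 partners and stress transcription factors, FOXO3 rose from 18.9 ± 0.0867 to 50.7 ± 1.84 CPM (1.42, adjusted p = 4.8e-07) and ATF3 rose (0.65, adjusted p = 0.00029), NFE2L2, which encodes the antioxidant regulator NRF2, fell from 252 ± 2.31 to 117.8 ± 12.02 CPM (-1.10, adjusted p = 2.4e-06), and CEBPG, a dimer partner of ATF4, fell (-0.55, adjusted p = 0.00031). CEBPB was at 0.42 (adjusted p = 0.036).

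The remaining groups held fewer calls after GO, where 12.1% of all genes rose and 15.4% fell. Of the tRNA synthetase genes 16.7% rose and 8.33% fell, and of the synthesis genes 20% rose and 0% fell. Of 12 tRNA synthetase genes AARS (0.60, adjusted p = 0.002) and CARS (0.45, adjusted p = 0.0053) rose and TARS fell (-0.51, adjusted p = 0.00037). Of 10 genes of amino acid and one-carbon synthesis the transaminase GPT2 (0.43, adjusted p = 0.0029) and the proline synthesis gene ALDH18A1 (0.36, adjusted p = 0.0038) rose. OMA1, the mitochondrial protease that relays stress from that organelle, fell (-0.54, adjusted p = 0.0069). Leaving out 1 sample ended several of these calls. OMA1 lost its call in all 6 such fits (adjusted p 0.013 to 0.036), and EIF2AK1 and ALDH18A1 lost theirs in the 5 fits without a sample other than GO replicate 1 (up to 0.022 and 0.024). CARS lost its call without GO replicate 1 (0.017) or any untreated sample (0.01 to 0.031), GPT2 without untreated replicate 2 (0.02), untreated replicate 3 (0.017) or GO replicate 3 (0.011), SLC38A2 without untreated replicate 1 (0.012) and AARS without untreated replicate 2 (0.01). The number of pathway genes that fell dropped to 7 without untreated replicate 1, untreated replicate 2 or GO replicate 3.

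After GO-Rg3, 0 of the 64 pathway genes were called against untreated cells by edgeR's quasi-likelihood test, 11 were at an unadjusted p below 0.05, and DESeq2 called 1 higher and 1 lower. The kinases EIF2AK1 (-0.07), EIF2AK2 (0.10), EIF2AK3 (0.05) and EIF2AK4 (0.01) and the factors PPP1R15A (-0.16), ATF3 (0.16), CEBPB (-0.09) and CEBPG (-0.15) had adjusted p from 0.52 to 0.99.

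Against GO at the same dose, 15 pathway genes were lower after GO-Rg3 (23.4%, beside 6.25% of all genes) and 7 higher (10.9%, beside 7.33% of all genes), with a median of -0.11. STC2 was at 13.4 ± 2.03 CPM against 49.4 ± 5.54 (-1.88, adjusted p = 2e-07) and ADM2 at 17.1 ± 6.81 against 56.0 ± 12.7 (-1.71, adjusted p = 0.00017). FOXO3 (-1.03, adjusted p = 1.9e-05), SLC7A11 (-0.82, adjusted p = 0.0003), SLC1A4 (-0.74, adjusted p = 0.0046), GPT2 (-0.51, adjusted p = 0.002), ATF3 (-0.49, adjusted p = 0.0041) and ALDH18A1 (-0.34, adjusted p = 0.0098) were also lower. NFE2L2 was higher (0.75, adjusted p = 0.00013), as were SLC38A2 (0.57, adjusted p = 0.0092), EIF2B3 (0.51, adjusted p = 0.0021), EIF2B2 (0.45, adjusted p = 0.0044), TARS (0.42, adjusted p = 0.0032) and CEBPG (0.39, adjusted p = 0.0061). The kinases EIF2AK1 (0.27, adjusted p = 0.025), EIF2AK2 (-0.17), EIF2AK3 (0.11) and EIF2AK4 (0.05) did not pass, nor did PPP1R15A (-0.34, adjusted p = 0.017) and CEBPB (-0.52, adjusted p = 0.022).

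In a fit of only the 6 samples compared, 4 pathway genes were called lower after GO-Rg3 than after GO and 1 higher. Several of the calls in the main fit also rested on single samples. Without GO-Rg3 replicate 3 the pathway counts were 7 lower and 2 higher, without GO replicate 3 there was 1 higher, and without GO-Rg3 replicate 2 there were 3 higher. Without GO replicate 1, ATF3 (adjusted p = 0.011), CEBPG (0.013), SLC38A2 (0.02) and SLC1A4 (0.017) lost their calls. Without GO replicate 2, EIF2B2 (0.019) and ALDH18A1 (0.031) did. Without GO replicate 3, EIF2B3 (0.014), EIF2B2 (0.024), CEBPG (0.026), SLC38A2 (0.013), TARS (0.018) and ALDH18A1 (0.038) did. Without GO-Rg3 replicate 2, CEBPG (0.022), SLC38A2 (0.033), SLC1A4 (0.019), TARS (0.011) and ALDH18A1 (0.028) did, and without GO-Rg3 replicate 3 so did EIF2B2 (0.019), ATF3 (0.024), CEBPG (0.024), SLC38A2 (0.028), SLC1A4 (0.026), TARS (0.013), GPT2 (0.015) and ALDH18A1 (0.05).

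After GO-Rg3-DOX, 20 pathway genes rose (31.3%) and 18 fell (28.1%), shares near the 25.5% and 30.5% over all genes, with a median of 0.20, beside -0.06 over all genes. Genes of amino acid and one-carbon synthesis rose in 7 of 10 cases and tRNA synthetase genes in 7 of 12, each with 1 lower. CBS, which makes cystathionine, went from 133 ± 7.17 to 251 ± 18.5 CPM (0.92, adjusted p = 2.7e-05) and the mitochondrial folate enzyme ALDH1L2 from 2.81 ± 0.0360 to 5.18 ± 0.833 CPM (0.88, adjusted p = 0.00055), while MTHFD2, another enzyme of that pathway, fell (-0.83, adjusted p = 1.4e-05). WARS (0.79, adjusted p = 2e-06) and AARS (0.58, adjusted p = 0.001) rose and TARS fell (-0.56, adjusted p = 4.4e-05). With library totals alone 4 pathway genes rose and 28 fell.

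Of the 6 partners and stress transcription factors, 4 fell and 1 rose after GO-Rg3-DOX, where 30.5% of all genes fell. CEBPG went from 105 ± 1.28 to 19.3 ± 0.866 CPM (-2.44, adjusted p = 8e-11) and NFE2L2 from 252 ± 2.31 to 76.5 ± 3.17 CPM (-1.72, adjusted p = 2e-09). ATF3 rose from 17.7 ± 0.326 to 60.3 ± 7.26 CPM (1.77, adjusted p = 3.1e-09), and CEBPB was at -0.39 (adjusted p = 0.037). Of the kinases, EIF2AK3, the sensor of unfolded proteins also called PERK, fell from 30.0 ± 0.231 to 11.8 ± 0.347 CPM (-1.35, adjusted p = 1.3e-07) and EIF2AK1 rose (0.38, adjusted p = 0.00082), a direction that turned with library totals (-0.04). EIF2AK2 was at -0.34 (adjusted p = 0.024) and EIF2AK4 at 0.18 (adjusted p = 0.18). The phosphatase subunit PPP1R15B fell (-1.26, adjusted p = 3.5e-06), as did EIF2S2, the beta subunit of eIF2 (-0.52, adjusted p = 0.00054), and PPP1R15A was at -0.05 (adjusted p = 0.67). OMA1 fell (-0.48, adjusted p = 0.0084), a call that no fit with 1 sample left out kept (adjusted p 0.012 to 0.041) and whose sign turned with the GC offset (0.02).

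Transporters and other targets went both ways after GO-Rg3-DOX. The transporters SLC43A1 (1.07, adjusted p = 4e-07) and SLC6A9 (0.78, adjusted p = 0.00026) rose, and SLC38A2 (-1.85, adjusted p = 4.2e-08) and SLC7A1 (-0.79, adjusted p = 4.6e-05) fell. Among other targets HERPUD1, which acts in the disposal of misfolded proteins, went from 119.03 ± 2.36 to 21.2 ± 1.94 CPM (-2.49, adjusted p = 8e-11) and the lipoprotein receptor VLDLR from 6.26 ± 0.431 to 2.45 ± 0.716 CPM (-1.35, adjusted p = 8.9e-06). The death receptor TNFRSF10B (0.71, adjusted p = 7.1e-06) and the autophagy gene MAP1LC3B (0.43, adjusted p = 0.00041) rose.

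**Figure D4:**
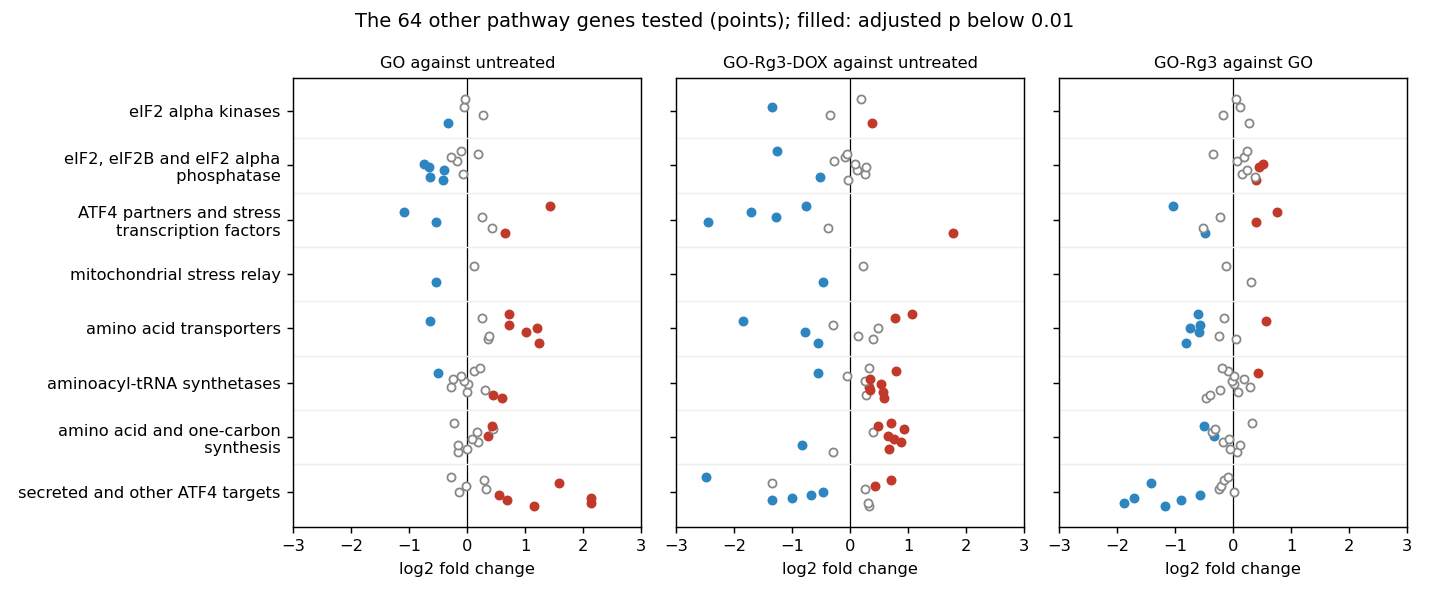
Log2 fold changes of the 64 other pathway genes by group, 1 point per gene, for GO and GO-Rg3-DOX against untreated cells and for GO-Rg3 against GO; filled points passed an adjusted p below 0.01, red for higher and blue for lower. The secreted and other targets hold the rightmost points after GO and the leftmost points for GO-Rg3 against GO, and the synthesis and synthetase groups lean right after GO-Rg3-DOX.

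The genes whose changes were most like those of ATF4 were found by the Euclidean distance over the 3 log2 fold changes against untreated cells, among 13242 genes with a mean of at least 1 CPM. They were LINC00339, C7orf49, C1orf172, SSBP2 and AC016747.3, at distances of 0.070 to 0.100. No other member was near ATF4: TRIB3 was the closest, at a distance of 0.93 and rank 2558, and PHGDH the farthest, at 2.79. For DDIT3 the nearest were GS1-124K5.2, LRRC66, AC114730.3, PPP1R3C and APOBEC3F, at 0.121 to 0.197, and SESN2 was the nearest member, at 0.80 and rank 2334.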

How the data were processed

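Poly(A) RNA of 12 Huh7 samples was made into stranded libraries (TruSeq stranded mRNA) and sequenced on an Illumina NovaSeq instrument. The authors deposited raw counts, whole numbers per gene and sample with no normalization, made with the NGI-RNAseq pipeline. The submitters' processing notes name GRCh37 and featureCounts, while versions, annotation release and strand setting are not given in the sources used here.

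Genes that reached 10 counts in 3 or more samples (17092 of 63677) were tested in edgeR 4.0.16 (R 4.3.3) with TMM scaling and the quasi-likelihood test, in 1 model of all 12 samples. P-values were adjusted by Benjamini-Hochberg over all genes tested. A gene rose or fell when its adjusted p was below 0.01, and a log2 fold change beyond 1, the further threshold of the study's methods, is given separately. The study's methods use DESeq2, which was an alternative here (version 1.42.0). Levels are TMM-scaled CPM computed from the counts, apart from the sums over marker lists, which use library totals alone. Intervals on fold changes are 95% intervals of the model, which cover counting error and the spread between samples. Totals of 27802871 to 38877420 counts per sample set their precision. No column was left unused.

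The 10 genes and the pathway list were chosen with earlier results of these data known. Of the pathway list, the 4 kinases, PPP1R15A, ATF3, CEBPB and CEBPG were named in every comparison, and otherwise up to 2 called genes per group and direction, those of the largest change. The 5 genes most like ATF4 and DDIT3 were named by distance. GC content came from GENCODE v44 annotation on GRCh37, which may not be the authors' release, and the offset from a loess fit (span 0.5) per sample. Gene positions are from the same annotation and promoters from RefSeq on GRCh38.p14. In simulated counts for GO against untreated cells over 17092 genes, with 200 genes changed by 1 on the log2 scale, 171 were recovered with 1 false call. With 0 genes changed, simulated for GO-Rg3 against untreated cells over 17092 genes, 0 were called. The simulated counts started from the untreated means, with as many rises as falls and no GC trend. They therefore do not cover the wider shifts or the GC trend seen in the data. Alternatives were RLE scaling, library totals alone, mitochondrially encoded genes left out, no filter, a filter on every sample, DESeq2, a block for the replicate number, the GC offset without and with that block, fits of only the 2 groups in question, omission of each sample in turn, an adjusted p below 0.05 and the log2 fold change threshold.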

Additional observations from a re-analysis of the deposited data

How the results depend on the processing

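The replicate numbers name no shared culture or day. Samples of the same number deviated together weakly (mean correlation 0.091 over 18 pairs, from -0.024 to 0.253). The mean over 36 other pairs was -0.045. Deviations were taken from each group's mean, so this second value largely follows from the first and is no separate baseline. Whether samples of the same number shared a culture or day was not tested. With the replicate block 7 members rose after GO (ATF5 added, 0.51) and 7 were lower for GO-Rg3 against GO (TRIB3, -0.50, and PHGDH, -0.48, added). Over all genes the block moved the GO calls from 2074 higher and 2639 lower to 2601 and 3190, those for GO-Rg3 from 10 and 18 to 18 and 66, those for GO-Rg3-DOX from 4350 and 5214 to 4617 and 5477, and those for GO-Rg3 against GO from 1253 and 1068 to 1810 and 1561. Every sample correlated best with its own number in the GO-Rg3 comparison (6 of 6), and 3 of 6, 3 of 6 and 5 of 6 did in those of GO, GO-Rg3-DOX and GO-Rg3 against GO.

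Over all alternatives 578 values of single members kept direction and call, while 33 lost the call, 10 gained it and 19 turned sign, and for named pathway genes 87.2% kept direction and call, 8.28% lost the call, 2.11% gained it and 2.44% turned sign. With 1 sample left out, 4 to 7 members rose after GO, 1 to 3 rose and 5 to 6 fell after GO-Rg3-DOX, and 5 to 6 were lower for GO-Rg3 against GO. Pathway genes numbered 13 to 16 higher and 7 to 11 lower after GO, 16 to 19 and 16 to 17 after GO-Rg3-DOX, and 1 to 8 and 7 to 18 for GO-Rg3 against GO. A log2 fold change beyond 1 left 2 members higher after GO, 1 higher and 3 lower after GO-Rg3-DOX and 2 lower for GO-Rg3 against GO, and among pathway genes 8 higher and 1 lower, 2 and 9, and 0 and 5. Library totals left 1 member higher after GO-Rg3-DOX, 4 pathway genes higher and 28 lower there, and 9 lower for GO-Rg3 against GO. No filter left 2 members higher after GO-Rg3-DOX. With only the 6 samples compared, 33 pathway genes rose after GO-Rg3-DOX, and for GO-Rg3 against GO 3 members were lower and 1 pathway gene higher and 4 lower, DDIT3 (adjusted p = 0.019) and SESN2 (0.01) losing their calls. At an adjusted p below 0.05, 11 pathway genes were higher for GO-Rg3 against GO. For GO-Rg3 against untreated cells, pathway genes called higher numbered 1 with the GC offset, 3 with that and the block and 1 with DESeq2, which also called 1 lower. Without the samples named beside each result, calls ended. Apart from the GC offset and those stated, the cause was not tested.

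Some signs turned, mostly of values that had not passed the test, but also of ASNS, EIF2AK1 and OMA1 after GO-Rg3-DOX, which had. ATF4 after GO was 0.00019 with RLE scaling, 0.0093 with 10 counts in every sample, 0.00015 with DESeq2 and -0.20 to 0.078 with 1 sample left out, and ATF4 for GO-Rg3 against GO was 0.042 with library totals, 0.046 with the GC offset, 0.054 with that and the block and -0.22 to 0.055 with 1 sample left out. After GO-Rg3-DOX library totals gave -0.058 for ASNS, -0.040 for EIF2AK1 and -0.23 for EIF2AK4, and PPP1R15A was 0.022 with RLE scaling and 0.021 with DESeq2. With the GC offset, first without and then with the block where they differ, PSAT1 was 0.022 after GO and -0.038 and -0.037 for GO-Rg3 against GO, ATF5 0.045 and 0.055 for GO-Rg3 against GO, EIF2AK3 0.19, EIF2AK4 0.12, PPP1R15A -0.092 and CEBPB -0.070 and -0.071 after GO, EIF2AK2 0.22 and OMA1 0.018 and 0.020 after GO-Rg3-DOX, and EIF2AK3 -0.075 and EIF2AK4 -0.052 and -0.051 for GO-Rg3 against GO. For GO-Rg3 against untreated cells EIF2AK1 was 0.0025 with only 6 samples and EIF2AK4 -0.0016 with no filter. With 1 sample left out, the ranges after GO-Rg3 were -0.0079 to 0.26 for SESN2, -0.092 to 0.17 for PHGDH, -0.057 to 0.11 for EIF2AK3, -0.067 to 0.057 for EIF2AK4 and -0.23 to 0.011 for CEBPB, those after GO were -0.13 to 0.038 for EIF2AK3 and -0.14 to 0.085 for EIF2AK4, and that for GO-Rg3 against GO was -0.080 to 0.15 for EIF2AK4. With 35 and 73 counts in their lowest samples, CHAC1 and DDIT4 had the lowest counts of the members.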
